A study of Mus musculus with 8 samples.

Results

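The genes described here are 42 members of the replication and mitosis machinery, measured in macrophages sorted from mouse pancreatic islets. They were taken by symbol from a deposited table of 48440 genes, in which each of the 42 had a single row. By function, 16 act in S phase, 22 act in mitosis, and 4 (Hmgb2, Stmn1, Smc2 and Smc4) shape chromatin or microtubules. The cells were sorted as CD11b and F4/80 double-positive from wild-type male C57BL/6J mice of 16 weeks, which had eaten chow with 8% fat or a high-fat diet (HFD) with 45% fat for the last 8 weeks. There were 4 libraries per diet, numbered 1 to 4 for chow and 5 to 8 for HFD, and each library pooled the islet cells of 2 mice. All mice carried the same genotype and no other treatment was named, so diet was the only labelled difference.

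Cells that divide switch on these genes in order. E2F transcription factors first drive genes of origin licensing, nucleotide supply and DNA synthesis, such as the MCM helicase and ribonucleotide reductase. Genes of chromosome condensation, the spindle and its checkpoint follow, held down outside the late cell cycle by the DREAM complex at a promoter element called the cell cycle genes homology region (CHR), with the factor NF-Y bound nearby. Tissue macrophages can renew themselves by local division, and Ki-67 and its companions are the usual markers of the dividing fraction.

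The promoters divided in part along the same line. RefSeq promoter windows (build GRCm38.p6, 250 bases before to 50 after a start) were found for 35 of the 42 genes, 37 windows in all. They were searched on both strands for 3 elements: the E2F site, spelled TTTCCCGC, TTTCGCGC, TTTGCCGC or TTTGGCGC, the CHR core, spelled TTTGAA or TTCGAA, and the NF-Y box, spelled CCAAT. An E2F site lay in 40% of the 15 S phase windows, in 5% of the 20 mitosis windows and in 2.26% of all 32851 windows. A CHR core lay in 13.3% of the S phase windows, 80% of the mitosis windows and 19.2% of all windows. The NF-Y box was in 60%, 90% and 37.4% of them, and a CHR core and an NF-Y box stood together in 13.3%, 80% and 7.52%. Among the 9511 windows of genes tested in these cells the E2F site was in 4.07%, the CHR core in 14% and the NF-Y box in 37.3%. A match describes letters in this window and no bound factor.

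The upstream 250 bases of 5 genes with values given in detail below are shown, chosen after the search: Mki67, Top2a and Kif11 as mitosis genes with a CHR core, Mcm6 as an S phase gene with E2F sites, and Rrm1 as an S phase gene with neither. They run 5′ to 3′ towards the start, with every E2F site, CHR core and NF-Y box on either strand in capitals.
Mki67 (chr7:135716380-135716629, minus strand): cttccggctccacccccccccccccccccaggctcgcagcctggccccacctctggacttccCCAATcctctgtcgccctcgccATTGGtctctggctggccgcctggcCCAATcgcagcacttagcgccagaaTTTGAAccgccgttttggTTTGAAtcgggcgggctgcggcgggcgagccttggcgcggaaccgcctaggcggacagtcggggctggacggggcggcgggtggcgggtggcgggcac
Top2a (chr11:99024190-99024439, minus strand): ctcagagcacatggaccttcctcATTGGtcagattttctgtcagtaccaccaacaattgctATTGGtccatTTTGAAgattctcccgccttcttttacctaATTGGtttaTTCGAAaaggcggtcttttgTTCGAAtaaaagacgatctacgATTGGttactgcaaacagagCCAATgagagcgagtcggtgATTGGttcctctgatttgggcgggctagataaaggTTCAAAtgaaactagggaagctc
Kif11 (chr19:37376132-37376381, plus strand): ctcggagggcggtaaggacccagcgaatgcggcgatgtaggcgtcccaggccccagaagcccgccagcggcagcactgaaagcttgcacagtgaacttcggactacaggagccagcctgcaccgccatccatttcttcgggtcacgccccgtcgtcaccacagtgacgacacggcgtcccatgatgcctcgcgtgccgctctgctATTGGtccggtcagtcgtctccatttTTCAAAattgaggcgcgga
Mcm6 (chr1:128359706-128359955, minus strand): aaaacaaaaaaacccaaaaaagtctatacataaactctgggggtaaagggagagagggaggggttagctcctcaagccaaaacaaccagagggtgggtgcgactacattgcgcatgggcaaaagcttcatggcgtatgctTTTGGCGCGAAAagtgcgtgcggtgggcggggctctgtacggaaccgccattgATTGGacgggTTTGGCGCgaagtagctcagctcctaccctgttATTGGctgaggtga
Rrm1 (chr7:102441445-102441694, plus strand): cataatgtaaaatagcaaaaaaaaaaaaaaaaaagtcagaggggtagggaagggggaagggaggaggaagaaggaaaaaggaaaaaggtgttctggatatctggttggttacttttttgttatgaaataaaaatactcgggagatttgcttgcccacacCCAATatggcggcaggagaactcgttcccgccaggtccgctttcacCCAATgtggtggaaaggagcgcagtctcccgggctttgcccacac
The Mki67 stretch held 2 CHR cores and 3 NF-Y boxes, and that of Top2a 4 CHR cores and 6 NF-Y boxes. Kif11 had 1 CHR core and 1 NF-Y box. In Mcm6 there were 3 E2F sites, of which 2 overlapped each other, and 2 NF-Y boxes, and in Rrm1 2 NF-Y boxes alone. By gene, 6 of 14 S phase genes with a window held an E2F site. Mcm2, Pcna, Rrm2, Tyms, Tk1, Ccne1 and E2f1 held none, like Rrm1. For E2f1, Mcm7, Cdc6 and Kif4 the 250 bases searched before the RefSeq start lay wholly inside the annotated gene. For E2f1 they were bases 154569427 to 154569676, with the annotated 5′ end at 154569892. A match or its lack in these 250 bases therefore does not describe the promoter at the annotated 5′ end. A CHR core was found for 15 of 19 mitosis genes, and not for Cenpe, Ccnb1, Birc5 and Nusap1.

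**Figure D1:**
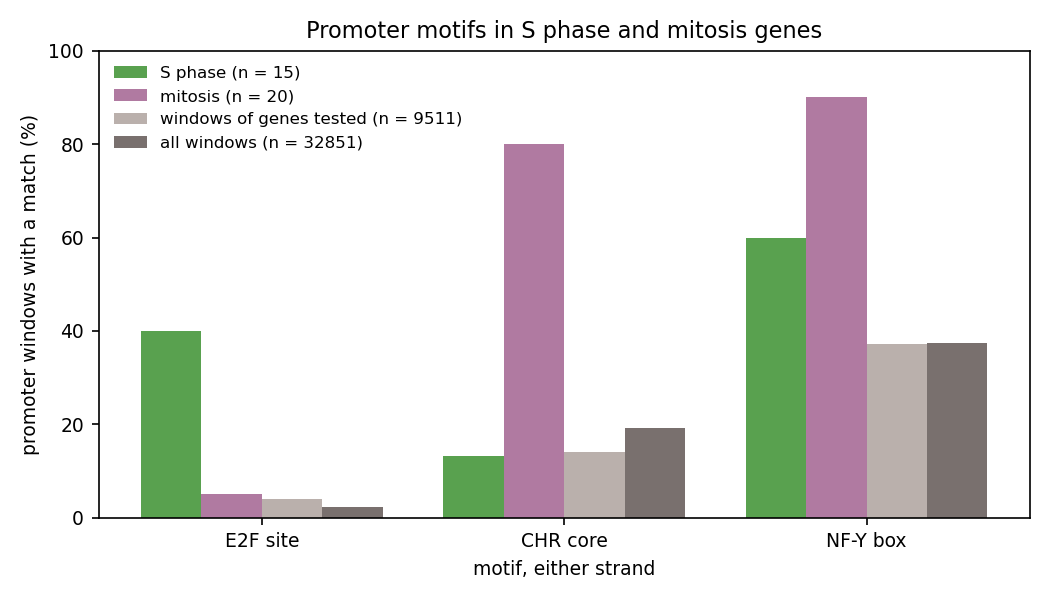
Percent of promoter windows (y axis) with an E2F site, a CHR core or an NF-Y box on either strand (x axis), for S phase genes (15 windows), mitosis genes (20), genes tested in these cells (9511) and all windows (32851). The E2F bar is highest for S phase genes at 40% and the CHR bar for mitosis genes at 80%.

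Levels are CPM, a gene's count scaled to a common library total, after TMM scaling, which adjusts for the composition of each library. Totals ranged from 4288665 to 6391247 counts, and where a gene had a count of 0 its level could still reach 0.468 to 0.708 CPM, depending on the library (3 counts of the scaled total, counting error only). Macrophage markers were present in every library, with all 13 of 13 detected and a summed level of 9038 to 11315 CPM in chow against 8967 to 9975 CPM in HFD. Of other cell types, 9 of 10 neutrophil markers, 6 of 8 red cell and platelet markers and 6 of 12 T and NK cell markers (Cd3e and Lck among them) had no count in any library. The 2 red cell and platelet markers that had counts summed to 2.60 to 5.00 CPM in chow against 5.62 to 24.2 CPM in HFD. Genes of neighbouring islet and exocrine cells were detected: 12 of 12 endocrine markers (487 to 1825 CPM in chow, 998 to 1849 CPM in HFD) and 11 of 11 acinar markers (0.225 to 2289 CPM and 34.9 to 1128 CPM), as were 9 of 10 dendritic cell markers (279 to 332 CPM and 166 to 296 CPM). Of the 42 genes, 30 passed the filter on low counts and were tested with edgeR's quasi-likelihood test. The p-values measure the spread among the pooled libraries of a diet. The SE of a log2 fold change was derived from the same test, as its absolute value divided by the root of the F statistic. A gene can pass the filter through the diet in which it is high. The members were also chosen with earlier results of these data known. Counts over the tested genes, also where set beside the share over all genes, are therefore descriptions.

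No gene of the set differed between the diets past the threshold (0 of 30 with edgeR, adjusted p over all genes 0.763 to 0.999, n = 4 per diet), and 0% of all 10129 genes tested did. DESeq2 and limma-voom also called 0, against 0.297% and 0.00987% of all genes. DESeq2 gave no adjusted p for 3 of the 30 and listed 6 at an unadjusted p under 0.05 (7.57% of all genes), and limma-voom listed 1 (5.76% of all genes). At that level, edgeR listed 4 of the 30, all 4 of them mitosis genes higher in HFD (Mki67, Prc1, Cenpf and Kif11), where 2.61% of all genes tested were higher and 2.74% lower with such a p. By direction, 12 of 14 tested mitosis genes and 9 of 12 tested S phase genes had a log2 fold change above 0, beside 48.6% of all genes. The median log2 fold change (HFD over chow) was 0.90 for mitosis genes, 0.45 for S phase genes and 0.20 for the 4 chromatin and tubulin genes, against -0.02 for all genes tested. Without HFD replicate 5 the mitosis median was 0.43, with 9 of 15 tested genes above 0, and without chow replicate 3 it was 1.50. The S phase median was 0.28 without HFD replicate 7 and 0.92 without chow replicate 2.

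Summed over the 22 mitosis genes, the level was 164, 239, 253 and 154 CPM in chow replicates 1 to 4 and 633, 298, 463 and 275 CPM in HFD replicates 5 to 8. All 4 HFD sums lay above all 4 chow sums, although HFD replicate 8 was close to chow replicate 3, and HFD replicates 5 and 7 stood highest. The 16 S phase genes summed to 249, 300, 205 and 180 CPM in chow against 358, 229, 373 and 207 CPM in HFD. Here the diets overlapped, with replicates 6 and 8 inside the chow range. The mean sum was 2.06 times higher in HFD for mitosis genes and 1.25 times for S phase genes. Without HFD replicate 5 these ratios were 1.71 and 1.16, and without HFD replicates 5 and 7 they were 1.41 and 0.936. In a bulk library, more dividing cells and more transcript per dividing cell cannot be told apart.

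The ratio of the mitosis sum to the S phase sum in the same library does not depend on scaling. It was 0.658, 0.799, 1.23 and 0.857 in chow and 1.77, 1.30, 1.24 and 1.33 in HFD. The diets did not overlap, but chow replicate 3 and HFD replicate 7 were almost level. Leaving Mki67 out of the sum brought them to overlap, at 0.308 to 0.715 in chow and 0.710 to 1.25 in HFD. Taken over genes of equal weight, the mean log2(CPM + 1) of mitosis genes minus that of S phase genes also overlapped, at -1.56 to -0.34 in chow and -0.71 to 0.10 in HFD. The number of mitosis genes with any count was 13, 13, 16 and 17 in chow and 21, 16, 21 and 17 in HFD, beside 11902 to 13057 and 12953 to 13448 genes of the whole table. For S phase genes it was 13 to 15 and 13 to 16.

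**Figure D2:**
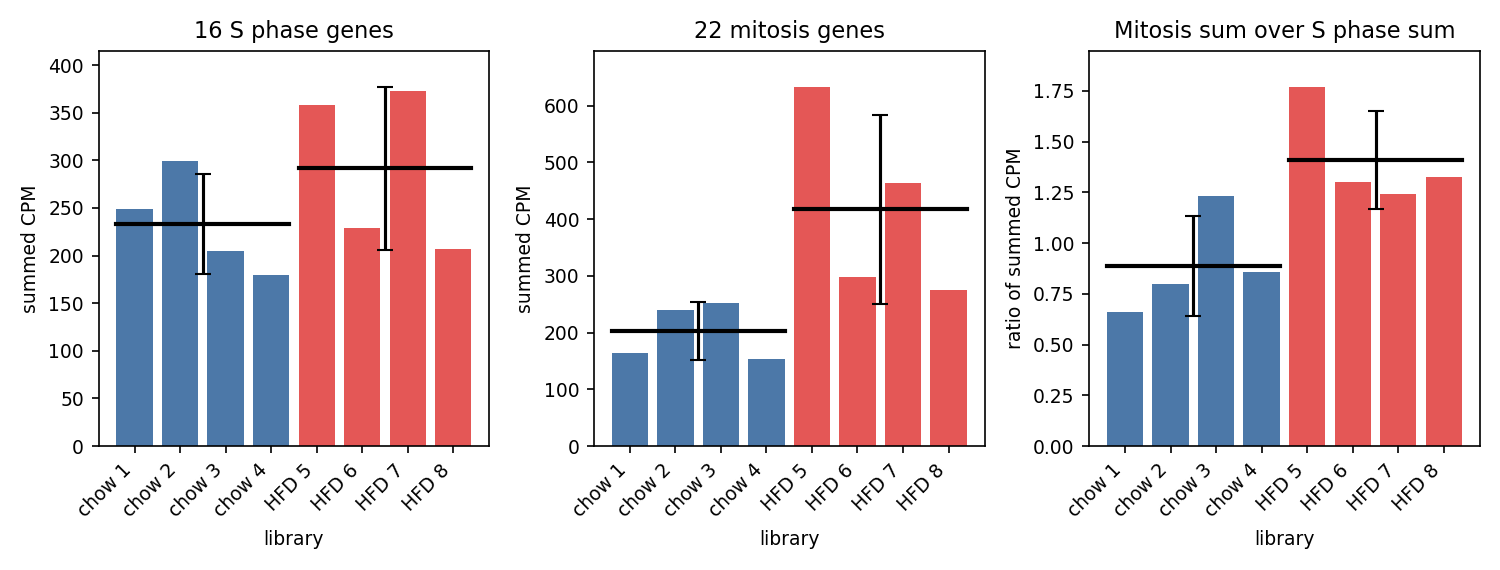
Summed CPM of the 16 S phase genes (left) and 22 mitosis genes (middle), and their ratio (right), as one bar for each chow (blue) and HFD (red) library (x axis); black lines are diet means and error bars the SD (n = 4). The mitosis sums reach 253 CPM in chow and start at 275 CPM in HFD, while the S phase sums of the diets overlap.

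**Figure D3:**
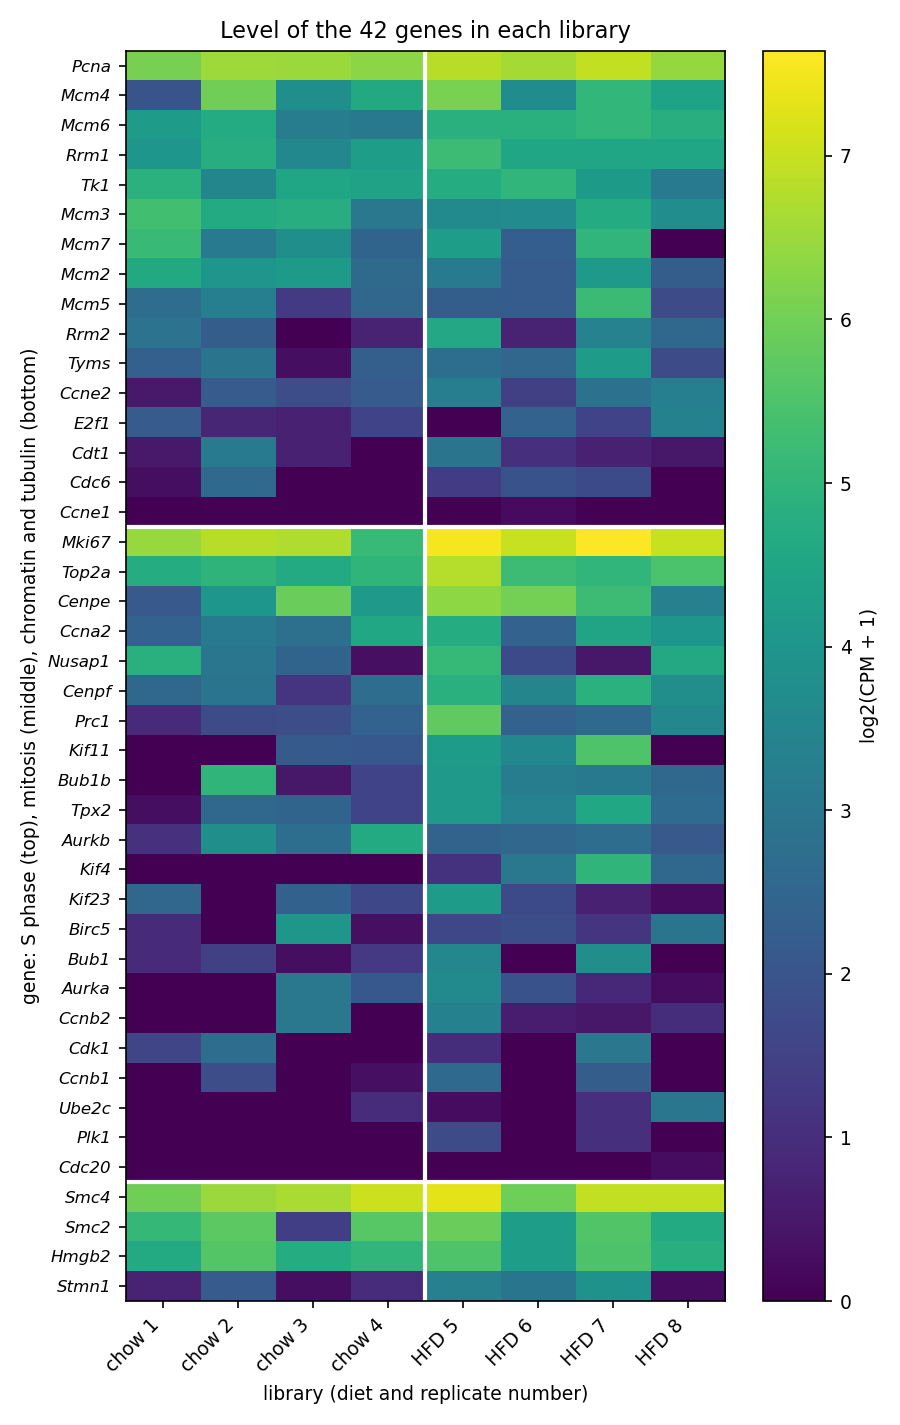
Level of each of the 42 genes (rows, S phase above, mitosis in the middle, chromatin and tubulin below, each ordered by mean level) in the 8 libraries (columns), as log2(CPM + 1). HFD replicates 5 and 7 hold the highest value in 10 and 7 of the 22 mitosis rows, and the lower rows of the mitosis block are at 0 in several libraries. The same share over all genes was not computed.

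Among the mitosis genes, Mki67 had the highest level per kilobase of exon. It encodes Ki-67, a coat of mitotic chromosomes and the standard marker of cycling cells (chromosome 7, 135689784 to 135716361, GRCm38). It stood at 87.2, 111, 106 and 34.7 CPM in chow replicates 1 to 4 and at 187, 126, 199 and 127 CPM in HFD replicates 5 to 8. Every HFD library lay above every chow library, with chow replicate 4 lowest. The log2 fold change was 0.91 (SE 0.35, edgeR adjusted p = 0.763). Over all alternatives run, the log2 fold change lay between 0.64 and 1.25, with adjusted p from 0.325 to 0.999.

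Top2a and Cenpe followed on the same scale. Top2a (chromosome 11, 98992943 to 99024189), the topoisomerase that untangles sister chromatids, was at 25.4, 30.1, 24.7 and 30.7 CPM in chow against 110, 37.0, 31.6 and 43.2 CPM in HFD. The diets did not overlap, by a margin of less than 1 CPM, and HFD replicate 5 stood apart. Its log2 fold change of 1.00 (SE 0.51, edgeR adjusted p = 0.937) was 0.43 without that library. Cenpe, a kinetochore motor (chromosome 3, 135212537 to 135273611), was at 3.37, 15.3, 58.7 and 16.0 CPM in chow against 80.6, 65.6, 36.7 and 9.04 CPM in HFD. Chow replicate 3 lay among the HFD libraries and HFD replicate 8 among the chow libraries (log2 fold change 1.04, SE 0.74, edgeR adjusted p = 0.987). Mki67, Top2a and Cenpe together made up 52.8% to 76.6% of the mitosis sum in a library. Without them the sums were 48.1 to 82.6 CPM in chow against 69.6 to 256 CPM in HFD and overlapped.

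The other mitosis genes at p under 0.05 were low in chow. Prc1 (chromosome 7, 80294450 to 80316259), which bundles microtubules of the central spindle, was at 0.899, 2.34, 2.49 and 4.25 CPM in chow against 53.4, 4.34, 5.06 and 10.6 CPM in HFD. The HFD mean rested on replicate 5, and its log2 fold change of 2.87 (SE 1.12, edgeR adjusted p = 0.784) was 1.42 without it. Cenpf (chromosome 1, 189640606 to 189688086), a kinetochore protein, was at 4.94, 6.71, 1.24 and 5.66 CPM against 27.6, 10.2, 28.5 and 12.7 CPM, with no overlap (log2 fold change 2.08, SE 0.93, edgeR adjusted p = 0.893). Kif11 (chromosome 19, 37376403 to 37421859), the motor that pushes spindle poles apart, was at 0, 0, 3.52 and 3.30 CPM in chow against 17.7, 10.8, 45.3 and 0 CPM in HFD. It was thus absent from the reads of HFD replicate 8 as of 2 chow libraries (log2 fold change 3.43, SE 1.55, edgeR adjusted p = 0.893). Tpx2, a spindle assembly factor outside the rule for detailed genes and named after its values were seen, was at 0.225 to 4.84 CPM in chow against 5.42 to 23.2 CPM in HFD without overlap (log2 fold change 2.23, SE 1.14, edgeR adjusted p = 0.937).

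All HFD libraries lay above all chow libraries for 5 of the 14 tested mitosis genes (Mki67, Top2a, Prc1, Cenpf and Tpx2) and for 1 of the 12 tested S phase genes (Mcm6), where 1.68% of all genes tested did so. None of the 30 lay wholly below. The highest library was an HFD library for 19 of the 22 mitosis genes, HFD replicate 5 for 10 of them and HFD replicate 7 for 7. For the 16 S phase genes it was an HFD library in 11. The same share over all genes was not computed, and these numbers include genes near the floor, such as Cdc20 with 1 count. Prc1, Top2a, Kif23 and Cenpe were among those highest in HFD replicate 5. Kif11, Kif4, Cenpf and Tpx2 were among those highest in HFD replicate 7, although replicate 5 was close to it in Cenpf.

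The remaining tested mitosis genes overlapped between the diets. Ccna2, the cyclin of S phase and early mitosis, was at 4.27, 7.65, 6.01 and 22.7 CPM in chow against 25.4, 4.34, 21.1 and 15.3 CPM in HFD (log2 fold change 0.70, SE 0.90). Each diet held both low and high libraries. Kif23 (cytokinesis motor), Bub1b (spindle checkpoint), Aurka (spindle pole kinase) and Nusap1 (spindle-bound) had log2 fold changes of 0.14 to 0.89 with SEs of 1.22 to 1.61. Aurkb and Birc5, which are partners in the chromosomal passenger complex, had negative ones of -1.29 (SE 1.11) and -0.39 (SE 1.51). Aurkb was at 1.12 to 24.5 CPM in chow against 3.41 to 5.69 CPM in HFD, and Birc5 had its highest value, 15.5 CPM, in chow replicate 3.

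**Figure D4:**
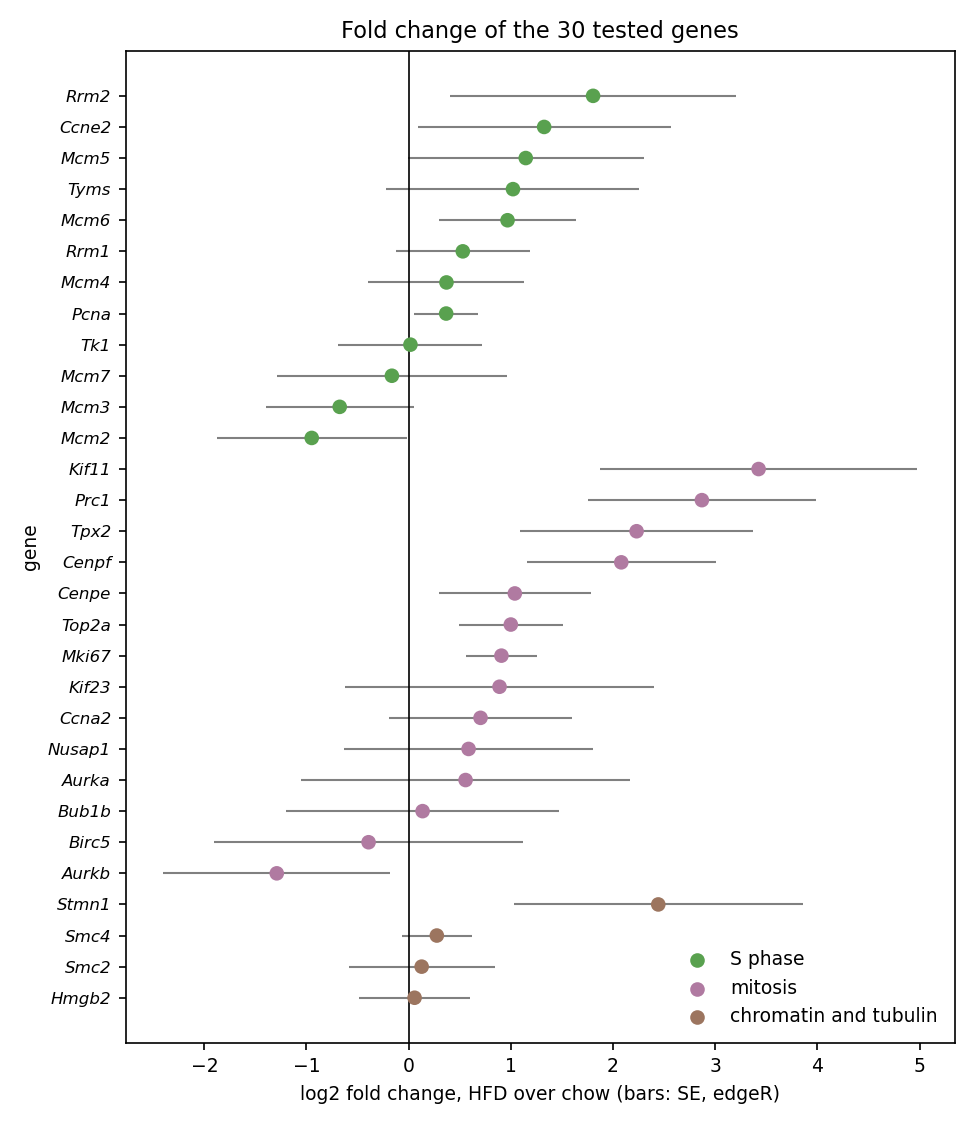
Log2 fold change of HFD over chow (x axis, edgeR) with its SE for the 30 tested genes (y axis), coloured by class. The SE is the absolute log2 fold change divided by the root of the test's F statistic. Of the mitosis genes, 12 of 14 points lie right of 0, with Kif11 farthest at 3.43. Of the S phase genes, 9 of 12 do. The SE bars of 7 of the 12 S phase genes reach across 0. So do those of the mitosis genes Kif23, Bub1b, Ccna2, Aurka, Nusap1 and Birc5.

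Of the 22 mitosis genes, 8 did not pass the filter, which asks for a minimum count in at least 4 libraries: Kif4, Bub1, Ccnb1, Ccnb2, Cdk1, Cdc20, Plk1 and Ube2c. Several are core drivers of mitosis. Cdc20, the activator of the anaphase-promoting complex, had 1 count in all 8 libraries, and the kinase gene Plk1 had 17, all in HFD. Ccnb1, the mitotic cyclin, had 17 counts in chow and 44 in HFD. Its kinase partner Cdk1 had 45 and 39, and Ccnb2, a second cyclin of that kinase, had 35 and 57. Bub1, a checkpoint kinase, had 22 and 113, and Ube2c, the ubiquitin-conjugating enzyme of the anaphase-promoting complex, had 4 and 41. Per kilobase of exon, their mean levels over the 8 libraries were 0.0134 (Cdc20), 0.195 (Plk1), 0.347 (Ccnb1) and 0.400 CPM (Cdk1), against 12.1 for Mki67 and 4.61 for Top2a.

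Kif4, a chromosome-bound motor on the X chromosome (100625737 to 100727214) and also named after its values were seen, had no count in any chow library. In HFD it was at 1.19, 7.29, 30.8 and 4.82 CPM, with 146 of its 218 counts in replicate 7. With the counts of each diet pooled, the HFD level was at least 70.5-fold higher than the chow floor of 3 counts over the group. That bound covers counting error only and not the spread between libraries, and HFD replicate 5 had 6 counts of Kif4. With no filter on low counts, edgeR called it (adjusted p = 0.0366), as it did 0.25% of 17969 genes. It passed in 2 of 8 fits with 1 library left out, those without HFD replicate 5 or 8, and not without HFD replicate 7 (adjusted p = 0.437) or in the other 5. Kif4 shares 832 exon bases with Pdzd11 on the opposite strand. No strand setting was given, so whether reads of the 2 genes were told apart there is not known. The partner Pdzd11 was at 0.468 to 48.7 CPM in chow against 4.37 to 36.6 CPM in HFD. Prc1 shares 911 bases with Rccd1 and Ccna2 shares 510 with Exosc9 in the same way, and Ccne2 shares 609 with Ints8. These 4 were the only genes of the 42 with counts that were not whole numbers. Without Prc1, Kif4 and Ccna2 the mitosis sums of chow replicate 3 and HFD replicate 8 were equal to 3 digits, at 244 CPM, and the diets overlapped.

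Stromal transcripts were also higher in most HFD libraries. All 12 of 12 stellate and fibroblast markers had a count in some library, and they summed to 24.0, 80.9, 133 and 88.7 CPM in chow against 452, 300, 236 and 106 CPM in HFD. In chow 6 of the 12 were at 0 throughout: Col1a1, Col6a1, Pdgfra, Dcn, Lum and Acta2. Rgs5, a pericyte gene, supplied most of the sum in chow replicates 2 to 4 and in HFD replicate 8. In HFD replicate 8 Col1a1 was at 0.201 CPM and Lum at 0, while in HFD replicates 5 to 7 Col1a1 was at 72.5, 41.2 and 30.8 CPM. The sum and diet were themselves related, since 3 of the 4 HFD sums lay above every chow sum. With the log2 of this sum as a covariate, the median log2 fold change of mitosis genes was -0.30, that of S phase genes 0.46, and 7 of 14 mitosis genes had a value above 0. Mki67 kept a log2 fold change of 0.73 (SE 0.51, edgeR adjusted p = 0.987) and Cenpf one of 2.05 (SE 1.51), while Cenpe was at -1.58 and Aurka at -4.55. HFD replicate 8, with a stromal sum inside the chow range, had a mitosis sum of 275 CPM against 154 to 253 CPM in chow. The contribution of stromal cells to the mitosis transcripts was not tested. Lymphoid markers overlapped between the diets: T and NK cell markers summed to 62.2 to 136 CPM in chow against 82.3 to 122 CPM in HFD, and B and plasma cell markers to 251 to 455 CPM and 213 to 314 CPM.

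**Figure D5:**
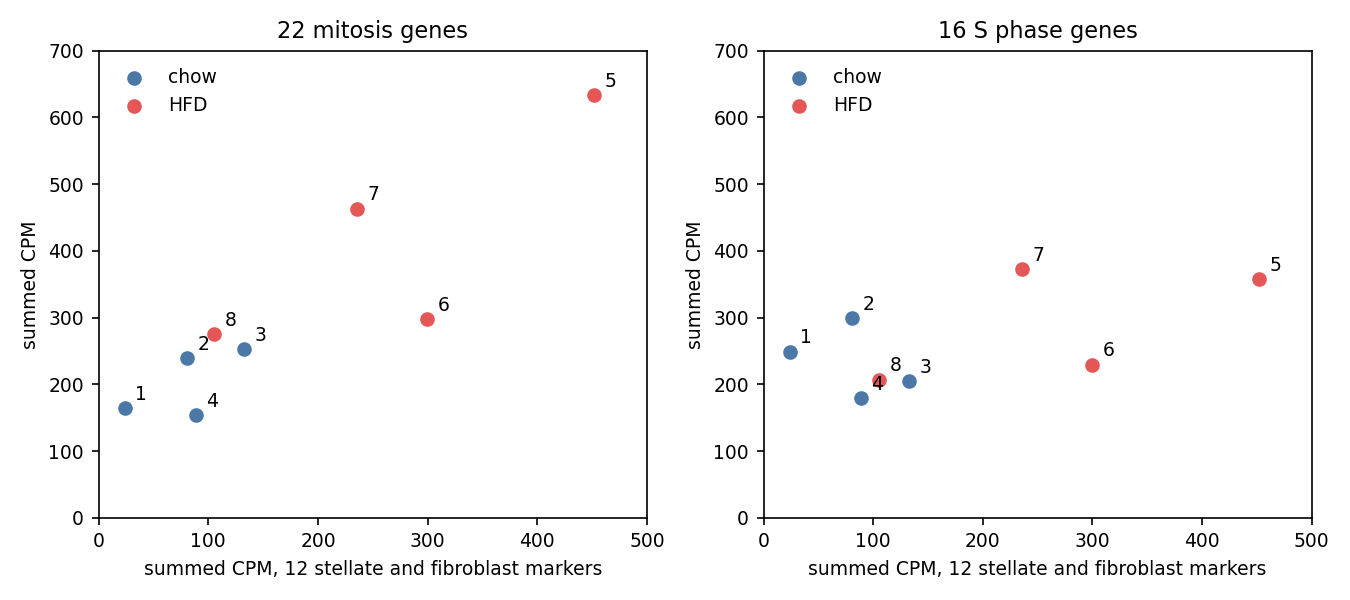
Summed CPM of 12 stellate and fibroblast markers (x axis) against summed CPM (y axis) of the mitosis genes (left) and S phase genes (right); each point is a library with its replicate number, chow in blue and HFD in red. HFD replicate 5 is highest on both axes of the left plot, and HFD replicate 8 lies among the chow libraries on the x axis.

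The diets overlapped for 11 of the 12 tested S phase genes. Pcna (chromosome 2, 132249162 to 132253314), the sliding clamp of DNA polymerase, was at 66.0, 90.7, 89.4 and 78.4 CPM in chow against 112, 97.8, 122 and 86.2 CPM in HFD. HFD replicate 8 lay within the chow range (log2 fold change 0.37, SE 0.31, edgeR adjusted p = 0.987). Per kilobase of exon it was the highest of the 42 genes, at 38.7 CPM over all libraries, followed by Smc4 at 20.4 and Mki67 at 12.1.

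The 6 subunits of the MCM helicase, which unwinds DNA at replication origins and is built from 1 copy of each, had log2 fold changes of both signs. Mcm6 (chromosome 1, 128331590 to 128359664) was at 17.7, 25.0, 8.29 and 7.55 CPM in chow against 28.0, 27.6, 32.7 and 26.5 CPM in HFD, with no overlap (log2 fold change 0.97, SE 0.67, edgeR adjusted p = 0.987). Mcm2 and Mcm3 had negative log2 fold changes of -0.95 (SE 0.93) and -0.67 (SE 0.72). Mcm4 was at 2.92, 62.8, 12.9 and 23.8 CPM in chow against 67.5, 12.2, 32.2 and 20.7 CPM in HFD, so each diet held 1 library far above its others. Mcm5 was at 1.45 to 8.74 CPM in chow against 3.77, 3.65, 35.8 and 2.41 CPM in HFD, with replicate 7 far above the others. Mcm7 had 34.8 CPM in chow replicate 1 and 0 in HFD replicate 8. Summed, the 6 genes were at 124, 144, 79.0 and 53.1 CPM in chow against 137, 62.7, 174 and 65.9 CPM in HFD.

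Among genes of nucleotide supply, Rrm1, the large subunit of ribonucleotide reductase, was at 15.3, 26.1, 10.8 and 18.2 CPM in chow against 36.5, 21.9, 21.3 and 21.9 CPM in HFD (log2 fold change 0.53, SE 0.65). The small subunit Rrm2 was at 6.51, 3.75, 0 and 0.708 CPM and at 23.6, 0.695, 9.48 and 4.82 CPM (log2 fold change 1.81, SE 1.40). Both diets held low and high libraries for Rrm2. Tk1, the thymidine salvage kinase, was level at 20.2 ± 7.46 and 20.4 ± 10.5 CPM, and Tyms, thymidylate synthase, was at 3.74 ± 2.68 and 7.64 ± 6.85 CPM (SD, n = 4). Ccne2, a cyclin of S phase entry, was at 0.449, 3.59, 2.49 and 3.54 CPM in chow against 8.54, 1.74, 6.32 and 8.84 CPM in HFD, with replicate 6 inside the chow range (log2 fold change 1.33, SE 1.24). Its paralogue Ccne1 had 1 count in all libraries, and 3 more S phase genes did not pass the filter either. Cdc6 and Cdt1, which load the helicase, had 34 and 57 counts in chow and 35 and 45 in HFD, and E2f1, an activating E2F factor, had 32 and 80.

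Of the chromatin and tubulin genes, the condensin subunit gene Smc4 was at 62.7, 88.8, 101 and 131 CPM in chow against 161, 61.6, 121 and 121 CPM in HFD (log2 fold change 0.28, SE 0.34). Its partner Smc2 was at 32.8, 51.8, 1.66 and 49.6 CPM in chow against 58.99, 18.6, 46.6 and 24.3 CPM in HFD, with chow replicate 3 far below the rest. Hmgb2, a DNA-bending protein, had diet means of 32.1 ± 10.8 and 33.5 ± 13.4 CPM (SD, n = 4). Stmn1, which destabilises microtubules, was at 0.674, 3.59, 0.207 and 0.944 CPM in chow against 9.14, 6.77, 14.1 and 0.201 CPM in HFD, high in all HFD libraries but replicate 8 (log2 fold change 2.44, SE 1.41, edgeR adjusted p = 0.987).

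Other genes of the same processes were listed by function. Of 46 further replication genes 38 were tested, 19 of them higher and 19 lower in HFD, and their median log2 fold change was 0.07. Of 59 further mitosis genes 32 were tested, 23 higher and 9 lower, with a median of 0.46. Of 25 regulators of the E2F, MuvB and FoxM1 circuits 20 were tested, 14 higher and 6 lower, with a median of 0.34. The further replication genes summed to 608 to 725 CPM in chow against 627 to 768 CPM in HFD, with overlap. The further mitosis genes summed to 535 to 884 CPM against 773 to 1050 CPM, also with overlap. The regulators summed to 671 to 796 CPM in chow against 807 to 897 CPM in HFD, without overlap. Singly, 0 of the 20 tested regulators had all HFD libraries above all chow libraries. edgeR called 0 genes on each list, as did DESeq2 and limma-voom, and edgeR listed 3, 2 and 1 at an unadjusted p under 0.05 (5.35% of all genes). Ckap2l, a spindle protein, was at 1.78 ± 2.69 CPM in chow against 20.0 ± 9.70 CPM in HFD, and Knl1, the kinetochore scaffold, at 5.99 ± 9.78 and 42.8 ± 30.7 CPM (SD, n = 4, edgeR adjusted p = 0.752 and 0.798). Kif20b, a cytokinesis motor, was at 7.29 ± 4.98 and 25.7 ± 7.07 CPM without overlap, and Incenp, the scaffold of the passenger complex, had a log2 fold change of -1.41 (SE 0.93). In replication, Pola1, the catalytic subunit of polymerase alpha, was at 18.1 ± 6.38 and 49.95 ± 23.3 CPM and the clamp loader gene Rfc2 was at 36.3 ± 14.6 and 9.67 ± 5.71 CPM, each without overlap and in opposite directions (edgeR adjusted p = 0.752 each). Rfc3, another clamp loader gene, was at 1.98 ± 2.24 and 15.2 ± 16.8 CPM, and Rpa3, a subunit of the single-strand binding protein, at 6.65 ± 4.66 and 1.09 ± 0.592 CPM, the latter without overlap (edgeR adjusted p = 0.893 and 0.937). The activator gene E2f2 was at 43.6 ± 31.8 CPM in chow against 9.40 ± 5.80 CPM in HFD (log2 fold change -2.21, SE 0.74, edgeR adjusted p = 0.752), with chow replicate 1 inside the HFD range. The next regulators by p, Rbl2, Skp2 and E2f4, had log2 fold changes of 0.47 (SE 0.32), 0.54 (SE 0.44) and 0.95 (SE 0.87).

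The spread between libraries was wide for the low genes. Among members with a mean under 10 CPM, the median coefficient of variation within a diet was 101%, beside 93.0% for all genes tested at that level. At 30 CPM or more it was 36.8%, beside 34.3%. In genome position the 42 genes were spread over 16 chromosomes. The nearest pair, Tk1 and Birc5, lie 23158 bases apart on chromosome 11, and Cdc6 and Top2a lie 69002 bases apart there, and the members of neither pair were highest in the same library. By exon length, 11 of 18 members under 4 kb and 19 of 24 longer ones passed the filter, beside 26.8% and 60.5% of protein-coding genes of those lengths.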

How the data were processed

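The submitters' processing notes name FastQC, Trim Galore, the aligner STAR and the build GRCm38. No version, counting program, strand setting, annotation or filter was given in the sources used here. Per the labels' protocols, 500 pg of RNA per library was amplified with the Ovation RNA-Seq System V2. The authors deposited expected counts per gene, unscaled, with 939 to 1115 values per library that were not whole, and these were rounded. edgeR 4.0.16 (R 4.3.3) fitted diet over the whole table (quasi-likelihood test, robust, TMM scaling, filterByExpr, two-sided, Benjamini-Hochberg threshold 0.05), and DESeq2 1.42.0 and limma 3.58.1 were alternatives. No library pair agreed within sampling noise (over 28 pairs, the lowest chi-square was 29.7 per degree of freedom).

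Gene positions and exon lengths came from the GENCODE M21 annotation. Values per library were given for the 4 genes with the smallest p and the 4 most abundant of each class (2 and 2 in the class of 4). In each further list up to 4 genes with the smallest p were named, by mean and SD or log2 fold change. The members and lists were chosen with earlier results of these data known.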

Additional observations from a re-analysis of the deposited data

Results flagged for a closer look

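In 40 sets of 4 values (the named genes and the class sums and ratios, within each diet), a highest or lowest library stood apart by Dixon's criterion in 4. For independent, normally distributed sets, chance alone marks about 1 in 20. The sets here were not independent, since Prc1, Top2a and Rrm1 enter the sums of the ratio, so 4 of 40 cannot be set against that rate. The library that stood apart was HFD replicate 5 in all 4. The ratio of the mitosis sum to the S phase sum was 1.77 there, against 1.33 in the next HFD library. Prc1 was at 53.4 CPM against 10.6 CPM, and Top2a at 110 CPM against 43.2 CPM. Rrm1, of the S phase class, was at 36.5 CPM against 21.9 CPM. HFD replicate 5 also had the highest stellate and fibroblast marker sum, 452 CPM.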

How the results depend on the processing

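No member was called under the other scalings, the stricter filter, DESeq2, limma-voom, the covariates or with any 1 library left out. Without a filter on low counts 1 was called, Kif4. No paired analysis was possible because the diets share no replicate number. The median log2 fold change of mitosis genes was 0.89 to 1.02 under the scalings and that of S phase genes 0.45 to 0.53. With 1 library left out, the mitosis median ran from 0.43 (without HFD replicate 5) to 1.50 (without chow replicate 3), the S phase median from 0.28 to 0.92, and their difference from 0.11 to 1.11. With the stellate and fibroblast covariate the mitosis median was -0.30 and the difference -0.76. The causes of these shifts were not tested.

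Of 530 values of single genes under alternatives, 485 kept their direction and 45 did not. With the stellate and fibroblast covariate the log2 fold change was -1.20 for Mcm4, 0.64 for Mcm7, -0.27 for Tk1, -1.58 for Cenpe, -0.98 for Kif11, -0.90 for Kif23, -1.85 for Bub1b, -4.55 for Aurka, -0.29 for Hmgb2, -0.021 for Smc2 and -0.093 for Smc4. With the lymphoid covariate it was 0.0705 for Mcm3, -0.28 for Mcm4, 2.17 for Mcm7, -0.14 for Ccne2, -0.35 for Ccna2, -0.19 for Hmgb2, -0.002 for Smc2 and -0.28 for Smc4. With limma-voom it was 2.09 for Birc5 and -0.11 for Hmgb2. With 1 library left out the range crossed 0 for Mcm4 (-0.24 to 1.32), Mcm5 (-0.64 to 1.53), Mcm7 (-1.01 to 0.66), Tk1 (-0.28 to 0.29), Kif23 (-1.38 to 1.28), Bub1b (-0.30 to 3.55), Aurka (-1.03 to 1.83), Birc5 (-1.04 to 3.02), Nusap1 (-0.17 to 1.90), Hmgb2 (-0.12 to 0.31) and Smc2 (-0.27 to 0.41).

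The filter removed 12 of 42 members. The kit amplifies small inputs and no molecular identifiers are named in the sources used here, so intervals and floors cover counting error only. Sums without HFD replicates, on library totals and without Prc1, Kif4 and Ccna2 were chosen after seeing the data.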
